A study of Mus musculus with 29 samples.

Results

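Hindlimb muscle of calorie-restricted mice on the lard diet was compared with hindlimb muscle of control mice. All 4 muscle libraries labelled lard and all 4 labelled control were taken, which is 8 of the 29 libraries of the study and 8 of its 14 muscle libraries. Every one of the 38124 genes in the deposited tables was joined by its Ensembl identifier, and 13104 passed a filter on low counts and were tested. The comparison was made again without the control muscles of mice 1071 and 1120, which stood apart from the others.

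The study measured RNA of liver and of the whole hindlimb skeletal musculature of male C57BL/6 mice by sequencing, with 1 library per mouse and tissue. The mice were bought at 14 weeks of age and ate chow freely while their intake was recorded. At 4 months of age they were assigned to 4 diets. The lard mice, 1100, 1101, 1102 and 1130, received 60% of the free intake, which was 8.6 kcal/day. The soy mice (3 muscle libraries) and the fish mice (3 muscle libraries) received the same restricted amount, and these 3 diets carry the name of a fat. The control mice, 1071, 1095, 1120 and 1121, received 95% of the free intake, or 13.6 kcal/day, a level chosen by the authors to prevent obesity. The fat of the control diet, the age at which tissue was taken and the hour of feeding and of dissection could not be found in the labels or the series text. The effect of eating less and that of the lard fat cannot be told apart between lard and control mice, so the lard muscles were also set against the soy and fish muscles.

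Skeletal muscle is the largest store of glycogen and protein in the body and burns either glucose or fatty acids according to what the diet supplies. Under calorie restriction, adrenal glucocorticoids are known to be high in mice, and they act in muscle through a receptor that switches on genes of amino acid breakdown and of insulin and mTOR restraint. Muscle fibres lie in a collagen matrix made mainly by resident fibroblasts, between which resident macrophages patrol. A dissected hindlimb therefore holds RNA of fibres together with that of connective tissue, vessels, nerve, fat and blood.

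The lard libraries held 12626429 to 27106865 exon reads and the control libraries 14139000 to 15373808. The tissue label fitted the markers: all 10 skeletal muscle markers, among them the muscle creatine kinase Ckm and the giant sarcomere protein Ttn, had reads in every library, and their summed level was 132000 to 152000 counts per 1000000 exon reads (CPM) in lard muscles and 115000 to 219000 CPM in control muscles. CPM are scaled by edgeR's TMM factors throughout. The control muscles of mice 1071 and 1120 stood apart on the first principal component of all muscle libraries, at 59.9 and 68.12 against -21.6 to 10.56 for the other 12. Erythroid markers such as the haemoglobins summed to 274 to 855 CPM in lard muscles, and to 2150 and 7310 CPM in control mice 1071 and 1120 against 222 and 589 CPM in the other 2 controls. Neutrophil markers summed to 1.7 to 3.87 CPM in lard muscles, and to 349 and 1280 CPM in control mice 1071 and 1120 against 5.37 and 12.2 CPM in controls 1121 and 1095. The rank correlation across genes between exon length and a library's deviation from the mean log2 level was -0.365 and -0.477 in control mice 1071 and 1120, and 0.0203 to 0.262 in the other 12 muscle libraries. In bulk tissue, fewer cells of a type and less RNA per cell cannot be told apart.

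**Figure D1:**
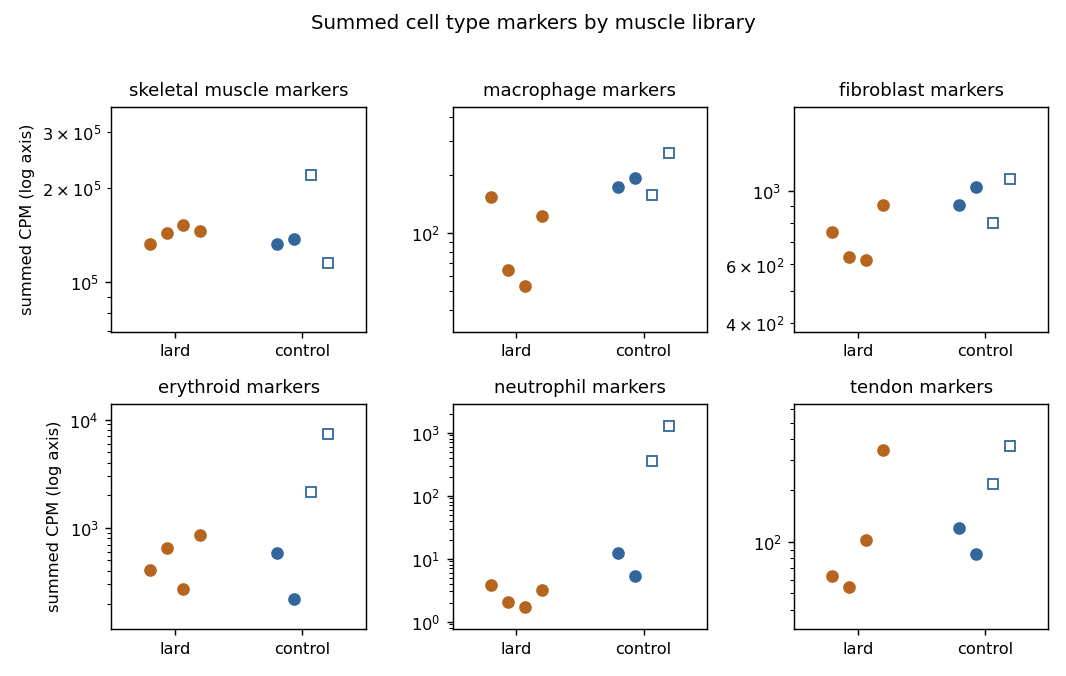
Summed CPM of marker genes of 6 cell types in each muscle library, on a log axis, with lard muscles on the left and control muscles on the right of each panel. Each point is 1 library, and open squares are control mice 1071 and 1120. Erythroid and neutrophil markers were far higher in these 2 controls than in all other libraries, and all 4 lard muscles lay below all 4 control muscles for macrophage markers.

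No gene passed the test between lard and control muscles. With edgeR's quasi-likelihood test and Benjamini-Hochberg adjustment, 0 of 13104 genes (0.0%) had an adjusted p under 0.05, and the smallest adjusted p was 0.0547. At an unadjusted p under 0.05, 905 genes (6.91%) were higher and 1358 (10.4%) lower in lard muscle. The 4 lard values lay wholly above the 4 control values for 427 genes (3.26%) and wholly below them for 513 (3.91%). The median log2 fold change over all genes tested was -0.03, with 46.4% of genes above 0 and 53.6% below. Other methods on the same counts drew the line elsewhere: DESeq2 gave 309 genes (103 higher and 206 lower), limma-voom 0, and limma-voom with library weights 3, which were Ccn5, Igfn1 and Sh3rf2. Leaving out control mouse 1095 gave 26 genes and leaving out control mouse 1121 gave 28, and leaving out any other single library gave 0.

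Without control mice 1071 and 1120, edgeR called 0 of 13207 genes (0.0%), with a smallest adjusted p of 0.111. At an unadjusted p under 0.05, 846 genes (6.41%) then differed, 369 (2.79%) of them higher and 477 (3.61%) lower in lard muscle. The median log2 fold change over all genes was 0.01, with 53.0% above 0 and 47.0% below. With 2 controls left, the lard values lay wholly above the control values for 9.09% of genes and wholly below them for 9.55%. DESeq2 called 25 genes in this comparison, limma-voom 0 and limma-voom with library weights 0. The further loss of control mouse 1095, which leaves a single control whose spread is taken from the other diets, gave 6 genes. All values below are therefore descriptions of genes that did not pass the adjusted threshold. The gene lists were drawn up with earlier results of these data known, so their shares beside those of all genes are descriptions too. In each comparison the 5 genes of smallest p, and in each pathway list the 2 members of smallest p, are named by rule; other genes named were chosen after their values were seen.

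The gene of smallest p was Ccn5 (ENSMUSG00000027656, chr2:163820861-163833146, GRCm38), which encodes a secreted matricellular protein of the CCN family. In the order of mice given above, it stood at 2.01, 1.26, 1.32 and 1.44 CPM in lard muscles, against 15.7, 5.6, 6.31 and 14.7 CPM in control muscles. Every lard muscle was below every control, and the control values themselves formed a high and a low pair. The log2 fold change was -2.78 ± 0.41 (SE; 6.88-fold lower in lard), with an edgeR adjusted p of 0.0547. Leaving out control mice 1071 and 1120 gave -2.72 ± 0.43.

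Sh3rf2 (chr18:42053667-42158960) encodes a scaffold protein with SH3 domains and a RING finger. It measured 69.4, 68.5, 57.6 and 61.9 CPM in lard muscles, against 22.2, 29.4, 30.9 and 24.6 CPM in control muscles. The groups lay far apart with little spread in either. Its log2 fold change was 1.26 ± 0.19 (2.4-fold), with an edgeR adjusted p of 0.0547, and was also 1.26 without control mice 1071 and 1120.

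Doc2b (chr11:75768966-75796049), a calcium sensor that promotes fusion of secretory vesicles, was close to the detection limit in control muscle. Its levels were 6.59, 3.99, 3.78 and 2.63 CPM in lard muscles, against 0.208, 0.28, 0.465 and 0.94 CPM in control muscles. No control reached a lard value. The log2 fold change was 3.15 ± 0.5, with an edgeR adjusted p of 0.0763, and 2.8 ± 0.63 without control mice 1071 and 1120.

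Anxa5 (chr3:36448925-36475843), the calcium-dependent phosphatidylserine binder annexin A5, had 25.9, 19.7, 18.5 and 21.9 CPM in lard muscles, against 46.8, 36.9, 35.7 and 42.7 CPM in control muscles. All lard values were below all control values. Its log2 fold change was -0.91 ± 0.16, with an edgeR adjusted p of 0.134. Ppp1r3c (chr19:36731737-36736653) is the subunit that brings protein phosphatase 1 to glycogen and so turns on glycogen synthesis. It stood at 570, 620, 464 and 385 CPM in lard muscles, against 155, 123, 103 and 272 CPM in control muscles. The highest control, mouse 1121, was still below the lowest lard muscle, mouse 1130. The log2 fold change was 1.64 ± 0.29 (3.13-fold), with an edgeR adjusted p of 0.135, and 1.37 ± 0.35 without control mice 1071 and 1120.

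**Figure D2:**
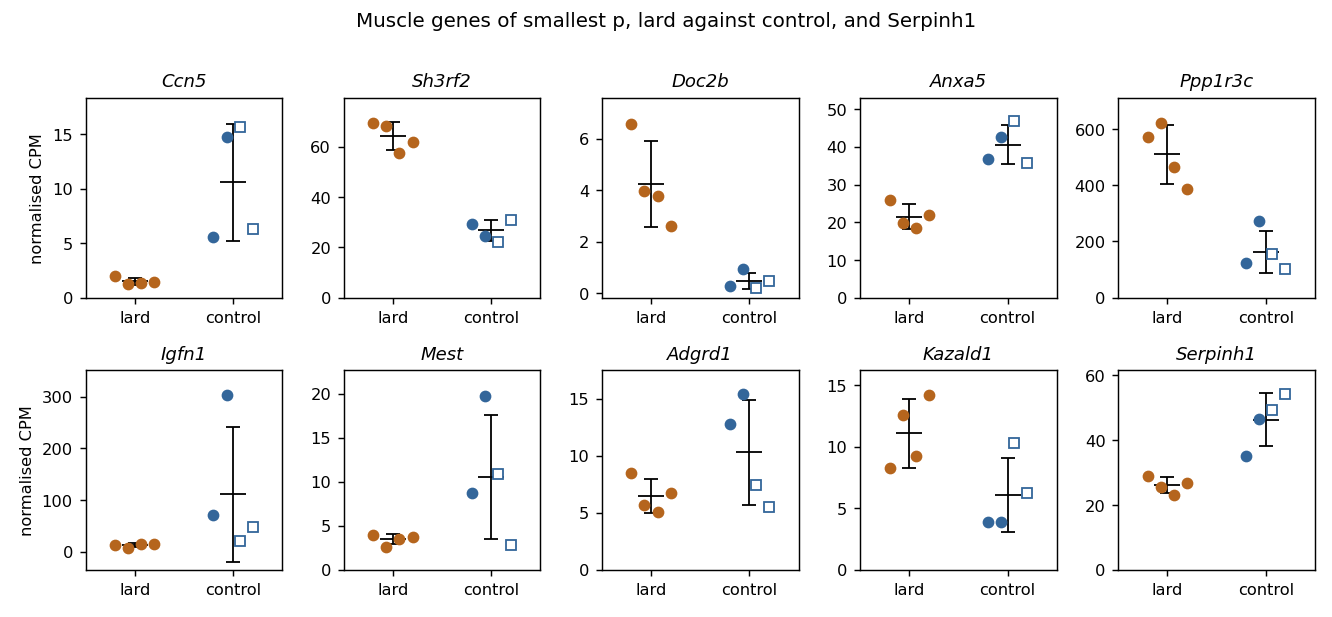
Normalised CPM per muscle library, lard left and control right, for the genes of smallest p with all libraries (Ccn5, Sh3rf2, Doc2b, Anxa5, Ppp1r3c), those without control mice 1071 and 1120 (Igfn1, Mest, Adgrd1, Kazald1) and Serpinh1. Points are libraries, open squares are control mice 1071 and 1120, and bars are the mean ± SD of 4 libraries. The groups did not overlap in the top row, in Igfn1 or in Serpinh1, whereas in Mest, Adgrd1 and Kazald1 at least 1 open square lay among the lard values.

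When control mice 1071 and 1120 were left out, Ccn5 was joined at the smallest p by Igfn1, Mest, Adgrd1 and Kazald1. Igfn1, an immunoglobulin and fibronectin domain protein of the sarcomere's Z-disc, had 12.5, 6.72, 15.5 and 14.7 CPM in lard muscles, against 20.9, 71.6, 47.9 and 304 CPM in control muscles. All lard values were below all controls, but control mouse 1121 was far above the other 3 controls. Its log2 fold change was -3.93 ± 0.52 without control mice 1071 and 1120 (edgeR adjusted p 0.111) and -3.17 ± 0.68 with them.

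Mest, an imprinted gene expressed from the paternal copy, had 3.95, 2.66, 3.53 and 3.75 CPM in lard muscles, against 10.9, 8.74, 2.79 and 19.8 CPM in control muscles. Control mouse 1120 lay within the lard range and the other 3 controls above it. The log2 fold change was -2.03 ± 0.3 without mice 1071 and 1120 and -1.6 ± 0.42 with them; exons of Copg2 overlap Mest on the other strand. Adgrd1, an adhesion G protein-coupled receptor, had a log2 fold change of -1.11 ± 0.19 without control mice 1071 and 1120, against -0.66 ± 0.27 with them. Kazald1, a secreted protein related to the insulin-like growth factor binding proteins, had values of 1.5 ± 0.26 and 0.86 ± 0.29 in these same fits, and both genes overlapped between the groups through control mouse 1071, Adgrd1 also through control mouse 1120.

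Collagen and matrix genes were lower in lard muscle as a list. Of 46 tested members, 44 had a lower and 2 a higher level, 23 were lower at an unadjusted p under 0.05 against 10.4% of all genes, and 1 was higher. The median log2 fold change of the list was -0.68, against -0.03 over all genes. Leaving these 2 controls out gave -0.65, with 23 lower against 3.61% of all genes and 0 higher. The summed level of the list was 2280, 1630, 1700 and 2650 CPM in lard muscles, against 2850, 2960, 3300 and 3050 CPM in control muscles. All lard sums were below all control sums, with mouse 1130 the closest lard muscle to the controls.

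The pair of smallest p in the list was Serpinh1 and Loxl1. Serpinh1, the collagen chaperone HSP47 of the endoplasmic reticulum, had 29, 25.6, 23 and 26.8 CPM in lard muscles, against 49.3, 35.2, 54.4 and 46.6 CPM in control muscles. Every lard muscle was below every control. Its log2 fold change was -0.83 ± 0.17 (edgeR adjusted p 0.144) with all controls and -0.64 ± 0.19 without control mice 1071 and 1120. Loxl1, a lysyl oxidase-like enzyme that crosslinks elastin, had 12.1, 7.92, 6.17 and 7.58 CPM in lard muscles, against 18, 17.3, 16.3 and 14.6 CPM in control muscles. These groups did not overlap either, and the log2 fold change was -0.96 ± 0.21.

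The major fibrillar collagens were less uniform. Col1a1 had 50.6, 20, 27 and 82.9 CPM in lard muscles, against 149, 62.9, 201 and 59.6 CPM in control muscles. Lard mouse 1130 lay above controls 1095 and 1121, and the log2 fold change of -1.39 ± 0.56 was -0.44 ± 0.61 without mice 1071 and 1120. Col3a1, the collagen of fine reticular fibres, had 120, 41, 63.8 and 85 CPM in lard muscles, against 130, 208, 118 and 151 CPM in control muscles. Here only lard mouse 1100 reached the lowest control, and the log2 fold change was -0.97 ± 0.43 with all controls and -1.21 ± 0.53 without the 2. Fbn1, the microfibril protein fibrillin 1, had 29, 15.1, 17.1 and 30.8 CPM in lard muscles, against 29.9, 97.2, 20.3 and 49 CPM in control muscles. Its difference was larger in the controls that resembled the other libraries, at -1.66 ± 0.33 without mice 1071 and 1120 against -1.09 ± 0.4 with them.

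Among the proteoglycans and binding proteins of the matrix, Bgn (biglycan) averaged 42.4 ± 10.6 CPM in lard muscles and 87.1 ± 21.8 CPM in control muscles (SD, n = 4 each), without overlap. Sparc, which binds collagen outside the cell, had 149, 125, 127 and 170 CPM in lard muscles, against 348, 198, 296 and 273 CPM in control muscles. All lard values were again below all controls, at a log2 fold change of -0.97 ± 0.26. Fn1 (fibronectin) and Col5a3 overlapped between the groups, with log2 fold changes of -0.74 ± 0.3 and -0.91 ± 0.26. The metalloproteinase inhibitor Timp3 was the list's member on the higher side at an unadjusted p under 0.05, with a log2 fold change of 0.48.

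**Figure D3:**
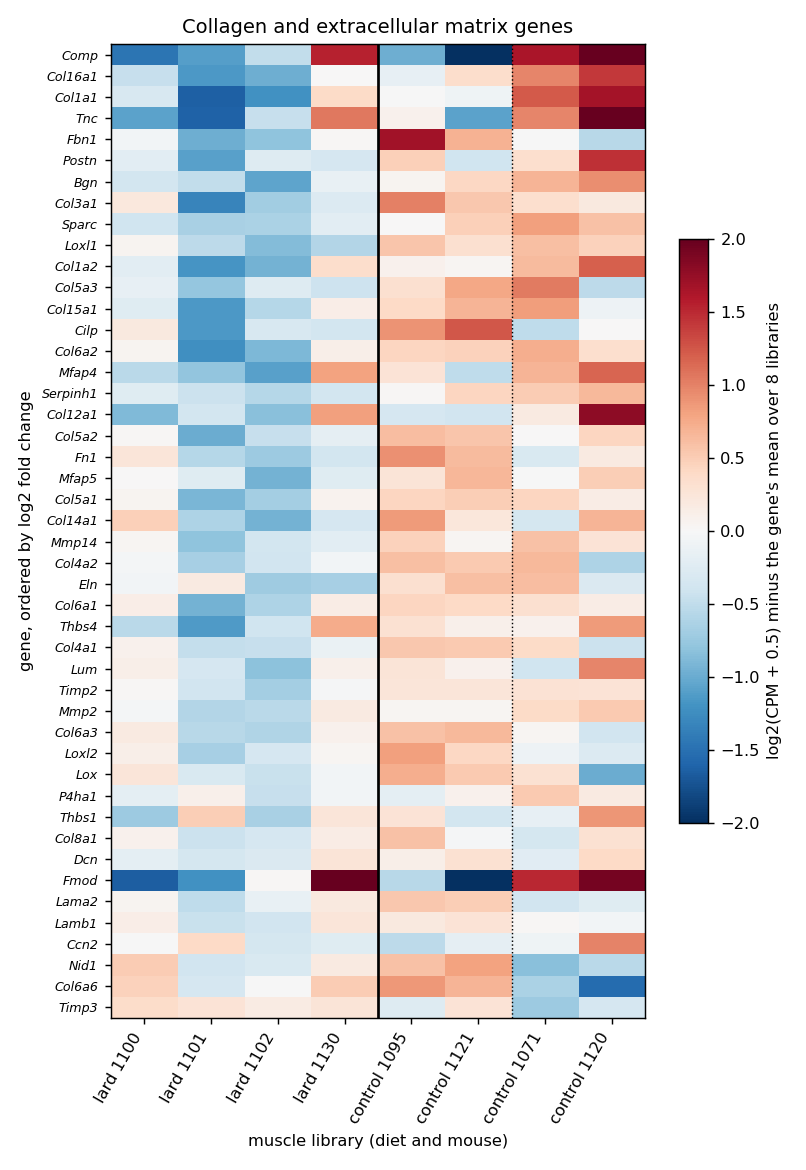
Heat map of the 46 collagen and matrix genes in 8 muscle libraries, with lard muscles left of the solid line, control muscles right of it and control mice 1071 and 1120 right of the dotted line. Colour is log2(CPM + 0.5) minus the gene's mean over the 8 libraries, limited to 2 in either direction, and genes are ordered by log2 fold change with the lowest at the top. Lard mice 1101 and 1102 were low in most genes. Tendon-type genes such as Comp, Tnc and Fmod were high in lard mouse 1130 and in control mice 1071 and 1120.

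Fibroblast markers were lower beside the matrix genes, and 4 of them (Dcn, Lum, Mfap5 and Col14a1) are also members of the matrix list. Fibroblast markers, 11 tested, had a median log2 fold change of -0.68 and all 11 were lower, 6 of them at an unadjusted p under 0.05 against 10.4% of all genes. The median was -0.5 without control mice 1071 and 1120, with 10 of 11 lower and 6 at that level against 3.61% of all genes. Their sums were 753, 630, 619 and 905 CPM in lard muscles, against 802, 905, 1090 and 1030 CPM in control muscles. The ranges overlapped through lard mouse 1130. Pi16, a marker of fibroblasts around vessels, had 25.6, 15.6, 14.3 and 25.1 CPM in lard muscles, against 56.9, 29.1, 63.2 and 48.5 CPM in control muscles. No lard value reached a control value, and the log2 fold change was -1.29 ± 0.28. Tendon markers summed to 63.2, 54.4, 103 and 347 CPM in lard muscles, against 218, 121, 365 and 84.4 CPM in control muscles and so differed between mice of the same diet. Their median log2 fold change was -0.39 with 7 of 8 lower, but 1.55 with 7 of 8 higher without control mice 1071 and 1120. The part of fibroblast and tendon content in the lower collagen levels was not tested.

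Macrophage markers were lower in lard muscle in all 14 members tested, 11 of them at an unadjusted p under 0.05 against 10.4% of all genes, with a median log2 fold change of -1.22. Without control mice 1071 and 1120 the median was -0.92, all 14 were lower and 8 passed that unadjusted level against 3.61% of all genes. All 14 markers had reads in every library of both groups. Ms4a7 and Fcgr1 were near the detection limit in lard muscles, at 0.126 to 0.931 and 0.063 to 0.639 CPM. A marker can pass the filter on low counts through the higher group alone. With a mean of at least 5 CPM, 8 markers were tested and their median was -1.0. Their sums were 154, 64.8, 53.5 and 123 CPM in lard muscles, against 158, 174, 260 and 192 CPM in control muscles. Lard mice 1101 and 1102 were far below every control and lard mouse 1100 was just under control mouse 1071. Cd68, a lysosomal glycoprotein of macrophages, had 3.43, 1.93, 1.26 and 3.19 CPM in lard muscles, against 5.81, 4.41, 9.83 and 4.7 CPM in control muscles. All lard values were under the lowest control, at a log2 fold change of -1.32 ± 0.33 with all controls and -0.88 ± 0.34 without the 2. The complement component C1qa, the receptor for macrophage colony-stimulating factor Csf1r and the pore-forming protein Mpeg1 did not overlap between the groups either. Their log2 fold changes were -1.37 ± 0.37 for C1qa, -0.92 ± 0.31 for Csf1r and -2.17 ± 0.49 for Mpeg1.

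Genes of antigen presentation had a median log2 fold change of -0.54 in 19 tested members, all of them lower and 7 at an unadjusted p under 0.05 against 10.4% of all genes. Without control mice 1071 and 1120 the median was -0.23, with 16 of 19 lower and 3 at that level against 3.61% of all genes. H2-DMb1, which helps load peptides onto class II molecules, had 0.931, 1.06, 0.819 and 1.84 CPM in lard muscles, against 4.77, 2.94, 4.52 and 2.75 CPM in control muscles. No lard value reached a control value, and the log2 fold change was -1.71 ± 0.41. Cd74, the invariant chain that escorts class II molecules, had 45.9, 18.8, 20.8 and 37.8 CPM in lard muscles, against 123, 78.3, 113 and 64.6 CPM in control muscles. It too showed no overlap, at -1.62 ± 0.47, and the class II chains H2-Aa and H2-Eb1 had log2 fold changes of -1.32 ± 0.45 and -1.49 ± 0.44. Markers of B cells, which also carry class II molecules, summed to 77.1 to 135 CPM in lard muscles and 145 to 333 CPM in control muscles, and their part in the result was not tested.

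Fatty acid synthesis genes stood higher in lard muscle, in the core enzymes more than across the list. Of 20 tested members 15 were higher, 5 of them at an unadjusted p under 0.05 against 6.91% of all genes, and 0 were lower at that level. The list's median log2 fold change was 0.25 with all controls and 0.28 without control mice 1071 and 1120. Acaca, the acetyl-CoA carboxylase that makes malonyl-CoA for synthesis, had 84.2, 97.7, 62 and 52.1 CPM in lard muscles, against 26.4, 30.1, 27 and 37.6 CPM in control muscles. All lard values lay above the highest control, mouse 1121. The log2 fold change was 1.29 ± 0.3 (2.45-fold, edgeR adjusted p 0.144), and 1.13 ± 0.41 without the 2 controls.

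Fasn, the fatty acid synthase that builds palmitate, had 331, 409, 171 and 103 CPM in lard muscles, against 89.7, 60.4, 93.8 and 61.3 CPM in control muscles. Lard mouse 1130 was just above the highest control, while lard mouse 1101 was at the top. Its log2 fold change was 1.73 ± 0.57. Elovl6, which lengthens palmitate to stearate, had 26.6, 50.6, 23.5 and 12.5 CPM in lard muscles, against 5.33, 3.78, 10.1 and 3.42 CPM in control muscles. All lard values exceeded all controls, and the log2 fold change was 2.32 ± 0.54 (4.99-fold) with all controls and 2.98 ± 0.76 without mice 1071 and 1120.

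The citrate-cleaving enzyme Acly had a log2 fold change of 0.74 ± 0.32 and the mitochondrial carboxylase Acacb one of 0.39 ± 0.16. Scd1, the desaturase that makes oleate, ranged from 582 to 1940 CPM in lard muscles and from 483 to 1520 CPM in control muscles, a near complete overlap. Srebf1, which encodes the transcription factor SREBP1 of these genes, averaged 70.3 ± 5.28 CPM in lard muscles and 56.6 ± 11.1 CPM in control muscles (SD, n = 4 each), with overlapping values. White fat also carries out this synthesis: the 14 white adipocyte markers summed to 3130 to 3930 CPM in lard muscles and 3290 to 4150 CPM in control muscles, with a median log2 fold change of -0.22. The fat hormone Lep had 23.5, 5.79, 5.54 and 3.75 CPM in lard muscles, against 55.1, 19, 5.25 and 78.3 CPM in control muscles, and Adipoq had a log2 fold change of -0.62 ± 0.74. The ranges of these sums and of Lep overlapped between the groups, and the part of fat tissue in the levels of Acaca, Fasn and Elovl6 was not tested.

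The cholesterol list was weaker. Its median log2 fold change was 0.11 over 24 members, 5 of which were higher and 0 lower at an unadjusted p under 0.05, against 6.91% and 10.4% of all genes. It was 0.18 without control mice 1071 and 1120, with 20 of 24 higher and 4 at that level against 2.79% of all genes. Fdft1, squalene synthase and the first committed enzyme of sterol synthesis, had 89, 94.5, 101 and 87.3 CPM in lard muscles, against 76.3, 68.5, 81.3 and 62.6 CPM in control muscles. The groups did not overlap, though the difference was small, at 0.37 ± 0.1 with all controls and 0.51 ± 0.09 (edgeR adjusted p 0.33) without mice 1071 and 1120. Lss, the lanosterol synthase that closes the sterol rings, had a log2 fold change of 0.87 ± 0.27, with 44.2% of its exon reads placed uniquely.

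Glucocorticoid-responsive genes had the highest median of the 27 pathway lists, which were chosen with earlier results of these data known. Of 25 tested members 24 were higher in lard muscle, 17 of them at an unadjusted p under 0.05 against 6.91% of all genes, with 0 lower. The median log2 fold change was 0.68 with all controls, against -0.03 over all genes, and 0.53 without control mice 1071 and 1120, when 7 members were at that unadjusted level against 2.79% of all genes. The summed level was 3230, 3780, 2620 and 1980 CPM in lard muscles, against 1250, 1510, 1440 and 2290 CPM in control muscles. Lard mouse 1130 was below control mouse 1121, and the other lard muscles were above every control. The receptor itself, Nr3c1, had a log2 fold change of 0.46. Per1 is counted both in this list and in the clock list.

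Ddit4, a glucocorticoid-induced inhibitor of the growth kinase mTORC1, had 86.3, 70.9, 55.9 and 44.9 CPM in lard muscles, against 11.8, 22, 19.1 and 18.4 CPM in control muscles. The groups were well apart. Its log2 fold change was 1.86 ± 0.39 (3.62-fold, edgeR adjusted p 0.144), and 1.68 ± 0.52 without the 2 controls. Klf15, a transcription factor that drives amino acid breakdown in muscle, had 64.7, 64.1, 52.9 and 43.8 CPM in lard muscles, against 25.3, 33.2, 43.4 and 39.1 CPM in control muscles. The groups did not overlap, but lard mouse 1130 was just above control mouse 1120, and the log2 fold change was 0.68 ± 0.17. Pik3r1, the regulatory subunit of the insulin-activated PI3 kinase, had 80.6, 113, 56.4 and 57.5 CPM in lard muscles, against 26.2, 30.8, 40.6 and 43.6 CPM in control muscles. Lard mice 1102 and 1130 were nearest to the controls but still above them, at 1.12 ± 0.29.

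Arrdc2, an arrestin-like protein, had 229, 218, 171 and 80 CPM in lard muscles, against 49.1, 29.9, 80.4 and 96.4 CPM in control muscles. Lard mouse 1130 lay among the controls, and the log2 fold change was 1.45 ± 0.34. Glul, the glutamine synthetase, showed the same arrangement at 711, 959, 556 and 326 CPM in lard muscles, against 176, 166, 301 and 337 CPM in control muscles, although 31.8% of its exon reads were uniquely placed. The long-used reporter gene of the receptor, Fkbp5, had 76.1, 98.1, 54.4 and 38.5 CPM in lard muscles, against 32.5, 21.2, 44 and 54.6 CPM in control muscles. These groups overlapped, and the log2 fold change was 0.81 ± 0.45. Tsc22d3, the leucine zipper protein GILZ, had a log2 fold change of 0.56 ± 0.19, the kinase gene Sgk1 one of 0.72, and the EGF receptor inhibitor Errfi1 one of 0.64 ± 0.18.

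**Figure D4:**
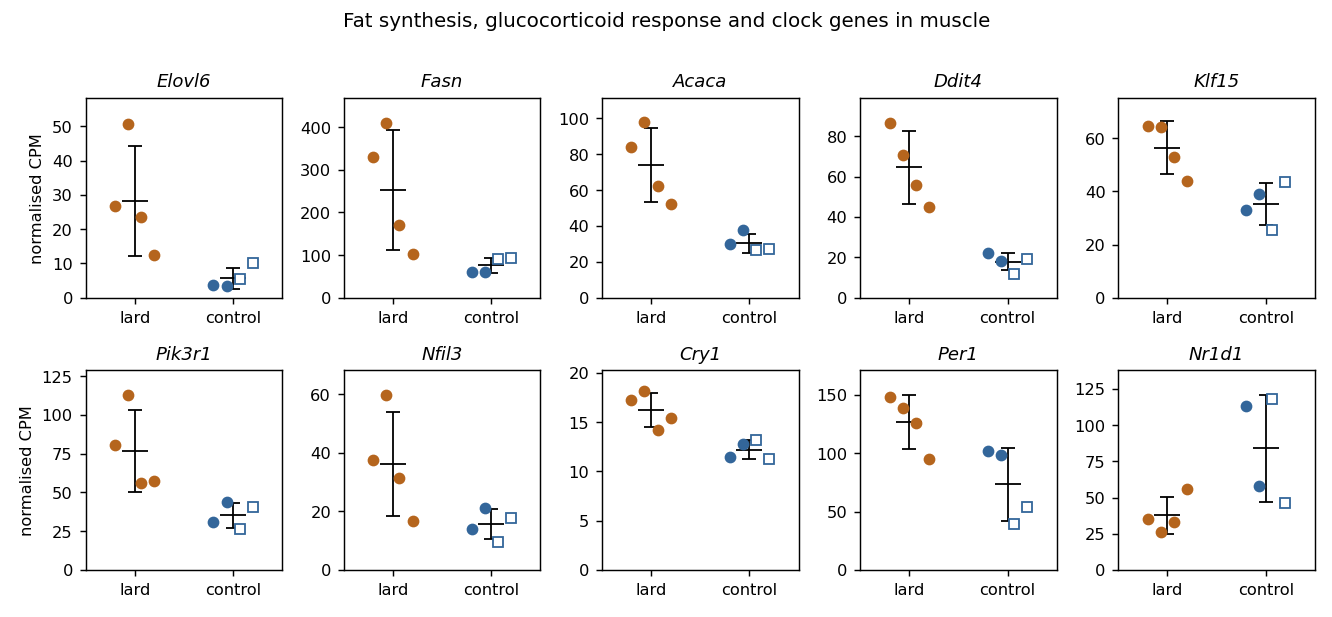
Normalised CPM per muscle library, lard left and control right, for genes of fatty acid synthesis (Elovl6, Fasn, Acaca), glucocorticoid response (Ddit4, Klf15, Pik3r1) and the clock (Nfil3, Cry1, Per1, Nr1d1). Points are libraries, open squares are control mice 1071 and 1120, and bars are the mean ± SD of 4 libraries. Lard mouse 1130 had the lowest lard value in Elovl6, Fasn, Acaca, Ddit4, Klf15, Nfil3 and Per1, while Nr1d1 was lower in lard muscle in most libraries.

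Genes of glucose and insulin handling were mixed. In the list of glycolysis, glycogen and glucose uptake, 5 of 40 members were higher and 1 lower at an unadjusted p under 0.05, against 6.91% and 10.4% of all genes, and the median log2 fold change was 0.02. Beside Ppp1r3c, the pair of smallest p held Pfkfb4, an enzyme that sets the level of the glycolytic activator fructose 2,6-bisphosphate, at 0.61 ± 0.21. Slc2a4, the insulin-responsive glucose transporter GLUT4, had 481, 512, 458 and 511 CPM in lard muscles, against 376, 415, 419 and 396 CPM in control muscles. The groups did not overlap, and the difference of 0.29 ± 0.11 was 0.28 ± 0.11 without the 2 controls. In the list of insulin, IGF and nutrient signalling, 7 of 40 were higher and 3 lower at that level, against the same shares of all genes, with a median of 0.17. The list without control mice 1071 and 1120 had 3 higher and 1 lower, against 2.79% and 3.61% of all genes, with a median of 0.05. Ddit4 and Pik3r1 led this list as well, and Tbc1d4, which holds GLUT4 vesicles inside the cell until insulin acts, was at 0.47 ± 0.18.

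Amino acid metabolism had 9 of 32 members higher and 0 lower at an unadjusted p under 0.05, against 6.91% and 10.4% of all genes, with a median log2 fold change of 0.09. The median was 0.2 without control mice 1071 and 1120, when 7 were higher, against 2.79% of all genes. The summed level was 4840 to 5370 CPM in lard muscles and 3760 to 4720 CPM in control muscles, without overlap. Aldh6a1, the mitochondrial dehydrogenase of valine and pyrimidine breakdown, had 207, 200, 198 and 202 CPM in lard muscles, against 103, 162, 140 and 147 CPM in control muscles. All lard muscles were within a narrow band above the controls, at 0.55 ± 0.13 with all controls and 0.39 ± 0.11 without the 2. Hibadh, of the same valine pathway, was at 0.37 ± 0.12, and Acadsb, which acts on isoleucine products, at 0.74 ± 0.25. Uniquely placed reads were 48.1% for Aldh6a1 and 39.2% for Acadsb, and exons of Bbof1 overlap Aldh6a1 on the other strand.

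The molecular clock turns on the repressor genes Per and Cry through factors that bind the E-box CACGTG, while the D-box TTANGTAA is bound by activators such as Dbp and by the repressor Nfil3. RefSeq promoters (GRCm38.p6) of 4 genes described here are printed as the 250 bases before a transcript start, chosen because each holds an E-box or a D-box, in capitals. In Cry1 (chr10:85185055-85185304, minus strand) an E-box begins 60 bases before the start and in Per1 (chr11:69098699-69098948, plus strand) 166 bases before it. Per3 (chr4:151044666-151044915, minus strand) has D-boxes at 205 and 158 bases, and Klf15 (chr6:90462326-90462575, plus strand) has E-boxes at 228 and 172 bases.
Cry1: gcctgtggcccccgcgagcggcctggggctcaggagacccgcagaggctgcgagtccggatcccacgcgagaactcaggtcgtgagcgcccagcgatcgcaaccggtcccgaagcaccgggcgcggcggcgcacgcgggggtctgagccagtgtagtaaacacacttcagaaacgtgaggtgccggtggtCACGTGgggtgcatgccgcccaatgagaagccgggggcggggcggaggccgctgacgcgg
Per1: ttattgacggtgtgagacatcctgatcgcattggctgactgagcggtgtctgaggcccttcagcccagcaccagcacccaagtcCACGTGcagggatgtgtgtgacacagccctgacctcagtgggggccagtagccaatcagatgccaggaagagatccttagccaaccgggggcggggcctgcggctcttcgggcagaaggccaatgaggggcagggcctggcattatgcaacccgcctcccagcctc
Per3: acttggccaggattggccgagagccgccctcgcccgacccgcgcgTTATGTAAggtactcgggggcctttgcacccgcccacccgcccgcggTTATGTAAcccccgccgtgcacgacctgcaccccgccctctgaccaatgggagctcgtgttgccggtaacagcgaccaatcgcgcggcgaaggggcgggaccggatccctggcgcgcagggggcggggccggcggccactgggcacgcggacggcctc
Klf15: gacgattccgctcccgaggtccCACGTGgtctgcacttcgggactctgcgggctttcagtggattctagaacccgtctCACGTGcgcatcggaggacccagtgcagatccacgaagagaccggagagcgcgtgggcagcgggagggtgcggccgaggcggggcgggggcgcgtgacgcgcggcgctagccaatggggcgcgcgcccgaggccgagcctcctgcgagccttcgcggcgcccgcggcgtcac
Both strands were searched and the motifs cannot overlap each other. The E-box was in 6.02% of 32851 mouse promoters of this length, in 7 of 30 promoters (23.3%) of 20 matched clock genes and in 5 of 36 (13.9%) of the glucocorticoid list. The D-box was in 2.06% of all promoters, in 2 of 30 (6.67%) of the clock list and in 0 of 36 of the glucocorticoid list. A match describes the letters in this window and is not a measured binding site.

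Of 23 tested clock genes, 17 were higher in lard muscle, 11 of them at an unadjusted p under 0.05 against 6.91% of all genes, and 1 was lower at that level against 10.4%. The median log2 fold change was 0.25 with all controls and 0.15 without control mice 1071 and 1120, when 4 were higher and 3 lower against 2.79% and 3.61% of all genes. Nfil3 had 37.4, 59.6, 31.4 and 16.7 CPM in lard muscles, against 9.41, 14, 17.7 and 21.3 CPM in control muscles. Lard mouse 1130 lay within the control range, and the log2 fold change was 1.22 ± 0.31. Nr1d1, the haem-sensing repressor REV-ERB alpha, had 35.5, 26.5, 33.3 and 56 CPM in lard muscles, against 118, 113, 46.2 and 58.3 CPM in control muscles. Only lard mouse 1130 was above the lowest control, and the log2 fold change was -1.15 ± 0.3 with all controls and -1.17 ± 0.3 without the 2. Exons of Thra overlap Nr1d1 on the other strand, and no source used here says whether reads were counted by strand.

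Cry1, the repressor whose E-box is printed above, had 17.2, 18.1, 14.2 and 15.4 CPM in lard muscles, against 13.2, 11.5, 11.3 and 12.8 CPM in control muscles. The groups were close but did not overlap, at 0.41 ± 0.11 with all controls and 0.42 ± 0.12 without the 2. Per3 had 41.5, 27.2, 34 and 35.6 CPM in lard muscles, against 10.2, 17.8, 10.9 and 30 CPM in control muscles. Control mouse 1121 lay within the lard range, and the log2 fold change was 1.01 ± 0.3 with all controls and 0.54 ± 0.26 without the 2. Per1 and Per2 likewise were at 0.8 ± 0.26 and 0.71 ± 0.26 with all controls and at 0.35 ± 0.19 and 0.44 ± 0.28 without the 2. Arntl, the activator BMAL1, was on the lower side at -0.53 ± 0.29 with all controls and -0.91 ± 0.27 without the 2, and Dbp overlapped between the groups. These genes vary over the day, and no source used here gives the hour of dissection.

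The direction of the contractile genes depended on which controls were used. Of 18 slow-fibre genes and 20 fast-fibre genes, 0 were higher or lower at an unadjusted p under 0.05, against 6.91% and 10.4% of all genes, with median log2 fold changes of 0.24 and -0.06. Both medians changed sign without control mice 1071 and 1120, to -0.2 with 16 of 18 slow-fibre genes lower and to 0.14 with 17 of 20 fast-fibre genes higher. The fast-fibre median was 0.16 without control mouse 1071 alone and -0.14 without control mouse 1120 alone. Fast-fibre genes summed to 363000 CPM in control mouse 1071 and 199000 CPM in control mouse 1120, against 202000 to 241000 CPM in lard muscles. Slow-fibre genes summed to 3620 and 11600 CPM in these 2 controls, against 5700 to 11400 CPM in lard muscles. Myh7, the myosin heavy chain of slow fibres, had 1470, 1160, 559 and 579 CPM in lard muscles, against 29.8, 1700, 93.8 and 592 CPM in control muscles. It was very low in control mice 1071 and 1120, and its log2 fold change of 0.64 ± 1.17 was -0.28 ± 1.21 without them. In the slow list the pair of smallest p was Casq2, a calcium store protein, at 0.72 ± 0.49, and the oxygen carrier Mb at -0.49 ± 0.42. In the fast list it was the calcium-binding subunit Tnnc2 at -0.58 ± 0.29, which was 0.09 ± 0.18 without the 2 controls, and the kinase Mylk2 at -0.38 ± 0.23.

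At an unadjusted p under 0.05, 3 of 27 genes of excitation and calcium handling were higher and 1 was lower. The shares over all genes were 6.91% and 10.4%. Without control mice 1071 and 1120, 0 were higher or lower, against 2.79% and 3.61% of all genes. The channel subunit Cacna2d1 averaged 499 ± 40.1 CPM in lard muscles and 325 ± 125 CPM in control muscles (SD, n = 4 each), without overlap, at 0.62 ± 0.22, and the junctional protein gene Jsrp1 was at -0.78 ± 0.29 with all controls and 0.04 ± 0.12 without the 2. Among 26 denervation and myogenesis genes, 2 were higher and 3 lower at that level, which is near the shares over all genes. Without control mice 1071 and 1120, 1 was higher and 0 lower, against 2.79% and 3.61% of all genes. Actc1, the cardiac actin made by developing muscle, had 84.6, 65.7, 295 and 991 CPM in lard muscles, against 37.8, 39.8, 28.5 and 66.1 CPM in control muscles. Lard mice 1102 and 1130 were far above the rest, and the log2 fold change was 3.06 ± 1.12, with 43.1% of reads placed uniquely. The transcription factor Runx1, which is induced by denervation, was at -0.83 ± 0.33 with all controls and -0.63 ± 0.39 without the 2.

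In the atrophy and autophagy list 3 of 38 genes were higher and 2 lower at an unadjusted p under 0.05, which is near or below the 6.91% and 10.4% of all genes, and the median was 0.08. The muscle ubiquitin ligases overlapped between the groups: Trim63 (MuRF1) was at 0.46 ± 0.23, and Fbxo32 (atrogin 1) at -0.06 ± 0.21. Of 17 myokine genes, 0 were higher and 6 lower at that level, against 6.91% and 10.4% of all genes, with a median of -0.26. With control mice 1071 and 1120 left out, 1 was higher and 3 lower, against 2.79% and 3.61% of all genes, with a median of -0.3. The median was -0.5 without control mouse 1095, -0.53 without control mouse 1120, -0.52 without control mouse 1121 and -0.59 without lard mouse 1130. Metrnl, a hormone released by exercised muscle, had 2.79, 2.06, 2.46 and 2.55 CPM in lard muscles, against 4.57, 4.13, 8.5 and 5.03 CPM in control muscles. All lard values were lower than all control values, at -1.17 ± 0.29 with all controls and -0.88 ± 0.31 without the 2. The growth inhibitor Mstn (0.13 ± 0.2) and the growth factor Igf1 (-0.17 ± 0.26) overlapped widely between the groups.

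Fat oxidation, fat storage and the citric acid cycle gave small medians. Among 41 PPAR targets and oxidation genes the median was -0.03 and 1 was higher and 3 lower at an unadjusted p under 0.05, below the 6.91% and 10.4% of all genes. Cpt1a, which lets long-chain fatty acids into mitochondria, was at -0.41 ± 0.15 with all controls and -0.54 ± 0.16 without the 2, and Ucp2, an uncoupling protein also made by blood cells, at -1.23 ± 0.39 and -0.3 ± 0.28. Among 22 fat storage genes the median was -0.03, with the monoglyceride lipase Mgll at -0.5 ± 0.19 and the lipid droplet protein Pnpla3 at 1.0 ± 0.44. Among 28 genes of the citric acid cycle the median was 0.18, with the pyruvate dehydrogenase phosphatase Pdp1 at 0.56 ± 0.18 and the opposing kinase Pdk3 at -1.25 ± 0.4.

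Several lists stood where control mice 1071 and 1120 put them, in some lists 1 of these mice more than the other. The 20 tested genes of DNA replication and mitosis had a median log2 fold change of -1.15 with all controls. Of these, 14 were lower at an unadjusted p under 0.05, against 10.4% of all genes. The median was 0.06 without the 2 controls. The filter on low counts passed 20 of 29 measured genes, and a gene can pass it through the higher group alone. With a mean of at least 5 CPM the median with all controls was -0.26 (7 tested). Top2a, the topoisomerase of dividing cells, had 0.112, 0.266, 0.063 and 0.239 CPM in lard muscles, against 2.84, 0.35, 15.1 and 0.268 CPM in control muscles, while Tpx2, a spindle protein, was at -1.24 ± 0.3 and -1.19 ± 0.37. The 78 cytosolic ribosomal protein genes had a median of -0.21 with 70 lower, and 0.17 with 77 higher without the 2 controls, with Rpl3 at -0.58 and 0.06 and Rpl28 at -0.62 and 0.1. The 13 mitochondrial DNA genes had a median of 0.41, with mt-Atp8 at 0.71 ± 0.43 and mt-Nd4l at 0.69 ± 0.45, and 0.03 without the 2 controls. Their sum was 67400 CPM in control mouse 1071 and 161000 CPM in control mouse 1120. In controls 1095 and 1121 it was 233000 and 172000 CPM. The 80 nuclear respiratory chain genes had a median of -0.13 with 3 lower at the unadjusted level, fewer than the 10.4% of all genes. Without the 2 controls the median was 0.09 with 0 lower, against 3.61% of all genes. Ndufb7 of complex I was at -0.63 and 0.01 and Atp5e of the ATP synthase at -0.68 and 0.14. The nuclear genes summed to 34400 CPM in control mouse 1120 and 25600 CPM in control mouse 1071. Controls 1095 and 1121 had 25800 and 22400 CPM.

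Proteasome genes (40 tested) had a median of -0.15 with 7 lower at an unadjusted p under 0.05, against 10.4% of all genes. Without the 2 controls the median was 0.02 with 0 lower, against 3.61% of all genes. The activator subunit Psme2 was at -0.57 ± 0.19 and -0.11 ± 0.13, the assembly chaperone Psmd10 at -0.4 ± 0.14 and -0.3 ± 0.15. Antioxidant genes (34 tested) had a median of -0.14 and 0.07, with the ferritin chain Ftl1 at -0.84 ± 0.22 and -0.34 ± 0.17 and the haem oxygenase Hmox1 at -0.95 ± 0.28 and -0.3 ± 0.2. The integrated stress and unfolded protein response list (30 tested) had a median of -0.22 and -0.02, with the endoplasmic reticulum chaperone Calr at -0.51 ± 0.18 and -0.13 ± 0.11 and the stress factor Atf3 at 3.23 ± 1.11 and 2.95 ± 1.56, high in lard mouse 1101 alone. Heat shock chaperones (34 tested) were at -0.16 and -0.02, with the small chaperone Hspb2 at -0.49 ± 0.19 with all controls and the inducible chaperone Hspa1b at 1.9 ± 0.84, again high in lard mouse 1101 alone. Interferon-stimulated genes (29 tested) were at -0.29 and -0.13. With all controls, 1 was lower at the unadjusted level, fewer than the 10.4% of all genes. Ifi27 was at -0.41 ± 0.18 with all controls, and the ubiquitin-like Isg15 at -1.15 ± 0.54 and 0.08 ± 0.54.

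**Figure D5:**
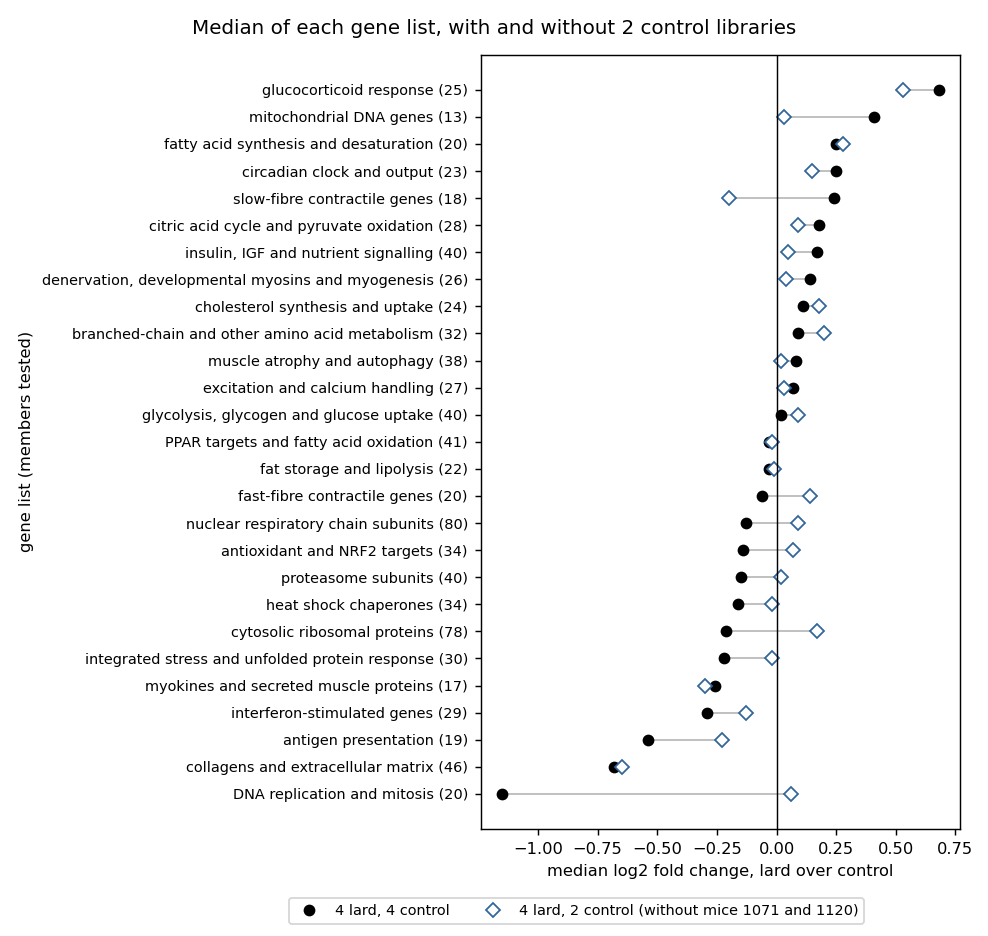
Median log2 fold change of lard over control muscle for 27 pathway lists, with the number of members tested in brackets. Filled circles use 4 lard and 4 control libraries, open diamonds leave out control mice 1071 and 1120, and grey lines join them. The collagen and matrix list and the fatty acid synthesis list barely moved, the glucocorticoid list kept most of its distance from 0, and the DNA replication and mitosis list moved to about 0.

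Among the remaining markers, endothelial genes (13 tested, median -0.05), smooth muscle and pericyte genes (11 tested, -0.02) and hepatocyte genes (10 tested, -0.07) had medians near 0. Without control mice 1071 and 1120 these medians were -0.16, -0.02 and 0.12, with 9 of 10 hepatocyte genes higher. Of the endothelial genes, 3 were lower at an unadjusted p under 0.05 with all controls, and 3 without the 2. The shares over all genes were 10.4% and 3.61%. B cell, T and NK cell, and mast cell and platelet markers had medians of -2.59 (4 tested), -2.58 (1 tested) and -1.04 (7 tested), and of -1.33, -2.56 and -0.62 without control mice 1071 and 1120. Neutrophil and erythroid medians were -4.67 (3 tested) and -2.23 (8 tested), and -1.67 and 0.41 without the 2 controls. The filter on low counts passed 4 of 13 measured B cell, 1 of 13 T and NK cell and 3 of 18 neutrophil markers. A marker can pass it through the higher group alone, so the sign of these medians is no independent result. With no filter the medians were -3.82 (12 tested), -1.81 (13 tested) and -7.25 (18 tested). Cartilage and bone markers (5 tested of 13 measured) were at -1.33 and 0.21. The same limit holds for them, and with no filter their median was -3.88 (12 tested). Schwann cell markers (9 tested) were at -0.22 and 0.5, and brown adipocyte markers (8 tested) at -0.26 and 0.28. Skin markers were at 3.66 (7 tested) and 4.91 (9 tested), with sums of 10.3, 22.6, 59.6 and 10.9 CPM in lard muscles, against 14, 10.3, 10.8 and 15.1 CPM in control muscles, so that lard mouse 1102 had the most, and the median with all controls was 0.64 without that mouse. Leaving out lard mouse 1102 or lard mouse 1101 left 4 skin markers past the filter, so the same limit holds for the skin median.

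Lard muscles were next set against the soy and fish muscles, which came from mice on the same restricted intake. With edgeR, 0 of 13104 genes (0.0%) passed and the smallest adjusted p was 1.0. At an unadjusted p under 0.05, 548 genes (4.18%) differed, 246 (1.88%) of them higher and 302 (2.3%) lower in lard muscle. That count was 1133 without control mice 1071 and 1120, which belong to neither side of this comparison but to the same fit, 1051 with the lard, soy and fish libraries alone and 1491 with limma-voom and library weights, each with 0 genes past the adjusted threshold. Log2 fold changes were above 0 for 46.1% of genes and below 0 for 53.9%. DESeq2 called 1 gene, limma-voom 0 and limma-voom with library weights 0. This comparison shares the lard libraries with the one against controls, so each is given by its own values.

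Of the 5 genes of smallest p between lard and control muscle, Ccn5 and Sh3rf2 had group means here that differed by less than the spread among the soy and fish muscles. Ccn5 averaged 1.51 ± 0.343 CPM in lard muscles (n = 4) and 1.99 ± 0.988 CPM in soy and fish muscles (SD, n = 6). Sh3rf2 averaged 64.3 ± 5.6 CPM in lard muscles and 60.7 ± 18.6 CPM in soy and fish muscles. Elovl6 averaged 28.3 ± 16.1 and Ddit4 64.5 ± 18.0 CPM in lard muscles, against 27.5 ± 15.3 and 53.6 ± 25.6 CPM in soy and fish muscles. Ppp1r3c averaged 510 ± 106 CPM in lard muscles and 356 ± 166 CPM in soy and fish muscles, a log2 fold change of 0.6 ± 0.26. Doc2b averaged 4.25 ± 1.67 CPM in lard muscles and 2.49 ± 1.14 CPM in soy and fish muscles, at 0.8 ± 0.38. Anxa5 averaged 21.5 ± 3.28 CPM in lard muscles and 29.2 ± 4.88 CPM in soy and fish muscles, at -0.44 ± 0.14. These 3 genes lay on the same side as against controls, with overlapping values and an edgeR adjusted p of 1.0 each. The list medians were -0.23 for collagen and matrix genes and -0.35 for macrophage markers. They were 0.13 for glucocorticoid genes, 0.05 for fatty acid synthesis and 0.0 for the clock. At the unadjusted level, 4 of 46 collagen and matrix genes and 0 of 14 macrophage markers were lower, against 2.3% of all genes. In direction alone, 12 of the 14 macrophage markers were lower and 2 higher. The summed matrix level, 1630 to 2650 CPM in lard muscles, lay within the 2060 to 3430 CPM of soy and fish muscles in its upper part and below it in mice 1101 and 1102.

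The 5 genes of smallest p between lard and the other restricted diets were Chia1, Kcnj12, Faap100, Hoxc6 and Cyp1a1, each with an edgeR adjusted p of 1.0. Chia1, an acidic chitinase, had 2.24, 2.66, 2.33 and 2 CPM in lard muscles, against 1.88, 2.26 and 1.58 CPM in soy muscles and 0.914, 0.535 and 0.449 CPM in fish muscles. Fish muscles were the low ones, and soy muscles touched the lard range. The inward rectifier channel gene Kcnj12 had 47.6, 43.2, 37.9 and 36.6 CPM in lard muscles, against 27.6, 24.4 and 37.1 CPM in soy muscles and 28.5, 21.8 and 16.8 CPM in fish muscles. Soy mouse 1141 alone reached the lard range, and the log2 fold change was 0.68 ± 0.15.

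Faap100, a subunit of the Fanconi anaemia DNA repair complex, had 18.8, 19.8, 12.5 and 12.5 CPM in lard muscles, against 9.34, 9.56 and 10.6 CPM in soy muscles and 11.8, 8.56 and 9.66 CPM in fish muscles. No value overlapped, at 0.68 ± 0.15. Hoxc6, a homeobox gene, was at 1.23 ± 0.27 with 7.3% of its reads placed uniquely. Cyp1a1, the main enzyme induced by the aryl hydrocarbon receptor, had 3.32, 0.865, 1.01 and 109 CPM in lard muscles, against 0.806, 0.521 and 1.13 CPM in soy muscles and 0.853, 0.535 and 0.823 CPM in fish muscles. Lard mouse 1130 was far above all others, and lard mouse 1100 was also above every soy and fish muscle. The log2 fold change of Cyp1a1 was 5.18 ± 1.15.

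Of the 27 pathway lists, the integrated stress list had the most members at the unadjusted level here, 14 of 30 lower and 1 higher against 2.3% and 1.88% of all genes, with a median of -0.29. Mthfd2, a mitochondrial folate enzyme induced by the stress factor ATF4, had 2.65, 3.13, 4.35 and 4.31 CPM in lard muscles, against 128, 2.43 and 4.37 CPM in soy muscles and 2.86, 137 and 281 CPM in fish muscles. Soy mouse 1065 and fish mice 1123 and 1124 were high and the other 3 restricted muscles were at the lard level. The log2 fold change was -4.48 ± 1.21, with an edgeR adjusted p of 1.0. Psat1, of serine synthesis, was high in the same 3 libraries, at 25.8 CPM in soy mouse 1065 and 32.9 and 70.6 CPM in fish mice 1123 and 1124, against 2.63 to 4.1 CPM in lard muscles.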

How the data were processed

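Muscle RNA of 14 mice was compared by diet, with libraries grouped per the labels. For every Ensembl gene the deposited tables hold, per the file headers, counts of reads in exons (all of them, and those placed uniquely) and in the whole gene. They also hold RPKM, which the authors computed per kilobase of exon. The genome build GRCm38 and FastQC are named in the submitters' processing notes. The aligner, counter, annotation and strand setting: not given in the sources used here. Before deposit the authors set aside 1 liver library and 1 fish muscle library for clustering apart, per the series text. Total exon reads were tested; RPKM were not used for any test. Of 38124 genes, 36345 were matched to a symbol. Coordinates are those of the deposited tables, and promoters are from RefSeq (GRCm38.p6).

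Exon read counts went into edgeR 4.0.16 (R 4.3.3), with filterByExpr with a minimum count of 10, TMM scaling and the quasi-likelihood F test, all 14 muscle libraries in 1 fit with diet as the only term (12 without control mice 1071 and 1120). The common biological coefficient of variation was 0.235, and 0.194 without these 2. The threshold was 0.05 on p adjusted by Benjamini-Hochberg over all genes tested. SE is the size of the log2 fold change divided by the square root of F. Replicates are separate mice. No pair of libraries within the lard group or within the control group agreed within sampling noise, and other pairs were not checked. Alternatives were DESeq2 1.42.0, limma-voom (limma 3.58.1) with and without library weights, size factors, filters, unique reads, a replicate block and libraries left out. The fits were tested on simulated data. Members, 27 pathway lists and 17 marker lists were chosen with earlier results of these data known. Genes named by rule would have been the largest differences past the threshold with at least 5.0 mean CPM; since none passed, they are the 5 of smallest p per comparison and the 2 of smallest p per pathway list, passing over clone names and pseudogenes. With 12626429 to 27106865 exon reads in lard and control muscles, depth limits genes near 0 CPM, and p-values describe the spread between these mice.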

Additional observations from a re-analysis of the deposited data

Results flagged for a closer look

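Each group of 4 muscle libraries was searched for a single library far from the other 3, over the named genes and the marker sums. In 276 such groups 13 had one. Chance gives about 5% of groups, or 1 in 20, so the count was near that of chance. Of the 121 named genes, 61 were chosen after their values were seen, so that share is a rough guide. The cases below are therefore given as single values and not as traits of a mouse. Lard mouse 1101 was far above the other lard muscles in the stress genes Atf3 (233 CPM), Hspa1b (113 CPM) and Hspa1a (80.4 CPM), and below them in the endothelial marker sum (782 CPM). Lard mouse 1130 was far above the others in Cyp1a1 (109 CPM) and in the tendon marker sum (347 CPM), and below them in Lss (5.35 CPM). Lard mouse 1102 was above the others in the ubiquitin ligase Fbxo32 (506 CPM) and the clock activator Arntl (6.23 CPM), and lard mouse 1100 in the fat hormone Lep (23.5 CPM). Among the control muscles, mouse 1071 was above the others in the channel gene Kcnj12 (35.6 CPM), mouse 1095 in the phosphatase Pdp1 (94.1 CPM), and mouse 1120 was below them in the basement membrane collagen Col4a2 (41.5 CPM).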

How the results depend on the processing

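Between lard and control muscle the count of genes past the adjusted threshold was 0 with edgeR, with size factors in place of TMM, with limma-voom, with a mean of at least 5 CPM, with unique reads and with the replicate block. It was 309 with DESeq2, 3 with limma-voom and library weights, 3 with no filter on low counts and 1 with the lard and control libraries alone, and leaving out 1 library gave 0 to 28. Without control mice 1071 and 1120 it was 25 with DESeq2, 1 with no filter, 0 to 6 with a further library left out and 0 in the other fits. Between lard and the soy and fish muscles it was 1 with DESeq2 and 0 in all other fits. The cause of these differences was not tested. Library numbers, 42 to 45 in the labels, were used as a replicate block. Lard and control libraries of the same number had correlations of -0.181 to 0.127, and those of different numbers -0.164 to 0.125. Whether the numbers mark pairs of mice or a batch was not tested beyond this. The block gave 2082 genes at an unadjusted p under 0.05 against 2263, with 0 called.

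Without control mice 1071 and 1120 the log2 fold change changed sign in Rpl3 (0.06), Rpl28 (0.10), Jsrp1 (0.04), Tnnc2 (0.09), Isg15 (0.08), Ndufb7 (0.01), Atp5e (0.14), Dbp (0.06) and Myh7 (-0.28), and the cause was not tested gene by gene. Leaving out 1 library put Fbxo32 between -0.35 and 0.05, Hspa1a between -0.39 and 1.84 and Hspa1b between -0.34 and 2.28. Depth limits genes near 0 CPM, such as Doc2b in control muscle.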

Other observations

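The immediate-early gene Fos and the stress genes Atf3, Hspa1a and Hspa1b were high together in 1 lard muscle. Fos, the activator protein 1 subunit that is switched on within minutes of stress or contraction, had 5.77, 55, 14.4 and 10.5 CPM in lard mice 1100, 1101, 1102 and 1130, against 5.05, 18.2, 10 and 4.16 CPM in control mice 1071, 1095, 1120 and 1121. The same lard mouse 1101 had the highest Atf3, Hspa1a and Hspa1b of the 8 muscles, while Hspa1a and Hspa1b had 20.3% and 32.1% of their reads placed uniquely. The whole list of heat shock chaperones summed to 7780 CPM in lard mouse 1101 and 8040 CPM in control mouse 1120. The other lard muscles had 5430 to 6240 CPM. Cyp1b1, which like Cyp1a1 is a target of the aryl hydrocarbon receptor, averaged 0.943 ± 0.406 CPM in lard muscles and 2.1 ± 0.676 CPM in control muscles (SD, n = 4 each), while Cyp1a1 was high in lard mouse 1130.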
